A study of Drosophila melanogaster with 16 samples.

Results

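The genes described here encode the proteins of the cytosolic ribosome of Drosophila melanogaster, and they were followed across all groups of an RNA-sequencing study of aneuploid larvae with and without the MSL2 protein. They were chosen by symbol alone, as every gene whose symbol begins with RpL (large subunit) or RpS (small subunit). This rule found 92 genes of 15953 in the table of trisomy 2L groups and the same number of 13861 in the table of metafemale groups, on 224 and 219 transcript rows. The symbols RpL7-like, RpL24-like, RpLP0-like and RpS28-like match the rule but are not named for a structural protein of the ribosome, which leaves 88 canonical members. Of these, 87 had an average of at least 1 CPM (read counts scaled to the mapped reads of a library) over the group means of each table, and RpS28a did not. The 87 comprise 36 RpS and 51 RpL genes, of which 14 lie on X, 17 on 2L and 56 elsewhere. The 56 comprise 20 genes of 2R, 14 of 3L, 21 of 3R and 1 of chromosome 4.

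A ribosome is made of a small 40S subunit, which reads the mRNA, and a large 60S subunit, which joins the amino acids, and each subunit needs its proteins in about equal numbers. In flies, losing a single copy of many of these genes gives the Minute phenotype of slow growth and short bristles, so the family is a classic example of dosage-sensitive genes. The MSL complex, of which MSL2 is the male-specific protein, acetylates histone H4 on the male X. In females the protein Sxl blocks the making of MSL2.

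RNA came from whole larvae of the third instar grown at 25 °C. MSL2-trisomy 2L females and males (genotypes XX,AAA and XY,AAA with MSL2 over-expression) had y; C(2L)dp; F(2R) bw mothers and fathers homozygous for an MSL2 transgene on 2R, and trisomy 2L females and males had the same mothers and Canton S fathers. MSL2-metafemales and metafemales (XXX,AA) had C(1)DX, ywf/winscy mothers and the same kinds of fathers. Diploid females and males came from the Canton S stock, so they differ from every aneuploid group in parental stock as well as in chromosome number, and the promoter of the transgene is not given in the sources used here. Each library pooled larvae. The labels list 3 libraries for each of the 4 trisomy 2L groups and 2 for each of the 2 metafemale groups, and none for the diploids.

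Each table holds 1 mean per group, in CPM adjusted for sequencing batch. No value of a single library was given, so no spread between replicates, depth or test accompanies any value below. A gene's level is the sum of its transcript rows, and a comparison is the ratio of 2 group means, given as its log2. A gene is counted as higher or lower when its means differed at least 1.5-fold. Counts of members are set beside the share of all genes past the same fold. In bulk RNA, fewer cells of a type and less RNA per cell cannot be told apart. The msl-2 gene itself had 177 CPM in MSL2-trisomy 2L females against 20.1 CPM in trisomy 2L females, 266 CPM against 52.8 CPM in the males, and 95.3 CPM in MSL2-metafemales against 8.31 CPM in metafemales.

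Markers of other tissues differed between the groups too. The summed level of the 3 salivary glue genes (Sgs3, Sgs7 and Sgs8, all detected) was 363 CPM in MSL2-trisomy 2L females, 4927 CPM in trisomy 2L females and 17172 CPM in diploid females, and 7528, 5024 and 16829 CPM in the corresponding males. It was 977 CPM in MSL2-metafemales, 2344 CPM in metafemales and 23996 CPM in diploid females of that table. The 3 muscle markers (Mhc, Act57B and Mlc2) summed to 13649 to 26566 CPM in the 4 trisomy 2L groups against 8092 and 10511 CPM in diploids, and to 16883 and 18886 CPM in the metafemale groups against 2592 and 4088 CPM. Both hemocyte markers and the 5 fat body markers were also detected, with hemocyte sums of 295 to 565 CPM in the trisomy 2L groups against 144 and 186 CPM in diploids. The part of these shifts in the ribosomal values was not tested.

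Ribosomal protein genes took a large share of every group mean. Genes of the rule made up 17.1% of the summed CPM in MSL2-trisomy 2L females, against 13.4% in trisomy 2L females and 15.6% in diploid females, and 13.9%, 12.7% and 13.5% in the corresponding males. In the metafemale table the share was 12.1% in MSL2-metafemales, 14.0% in metafemales, 17.2% in diploid females and 19.2% in diploid males. One gene, RpS2, accounted for most of the excess in MSL2-trisomy 2L females. Without it, canonical members made up 14.2% there, against 13.3% in trisomy 2L females and 15.6% in diploid females.

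Levels of different members were compared per kilobase of spliced length. Among the 80 canonical members with an average of at least 100 CPM in the trisomy 2L table, the median was 2242 CPM per kb, with quartiles of 1738 and 3158 CPM per kb. The highest was RpL41, which encodes one of the shortest proteins known, at 8323 CPM per kb, and the lowest was RpS15Ab, the minor gene of a pair, at 179 CPM per kb. The largest parts of the summed CPM, which grow with transcript length and do not rank the genes by level, were taken in the trisomy 2L table by RpS2 at 5752 CPM, RpL5 at 5437 CPM and RpL7 at 3008 CPM, and the average of RpS2 rests on its 2 MSL2-trisomy 2L means. RpL5, which carries the 5S rRNA into the large subunit, had 5055 to 5867 CPM in 6 of 6 groups of that table. In the metafemale table RpL5 was less even, with 2880 CPM in MSL2-metafemales, 3064 CPM in metafemales, 6195 CPM in diploid females and 5954 CPM in diploid males.

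RpS2 encodes a small-subunit protein near the decoding centre and is known in flies as string of pearls, for its ovarian phenotype. It lies on the minus strand of 2L, at position 9896265 to 9897552 in Release 6 coordinates. Its sum was 26912 CPM in MSL2-trisomy 2L females, 169 CPM in trisomy 2L females and 149 CPM in diploid females. It was 6980 CPM in MSL2-trisomy 2L males, 175 CPM in trisomy 2L males and 124 CPM in diploid males. No such step was seen in the metafemale table, where RpS2 had 1769 CPM in MSL2-metafemales, 1729 CPM in metafemales, 1889 CPM in diploid females and 1320 CPM in diploid males. The ratio of MSL2-trisomy 2L to trisomy 2L was 159-fold in females and 39.8-fold in males, and that of MSL2-metafemales to metafemales was 1.02-fold. The direction was the opposite in embryos, where the paper measured RpS2 RNA by fluorescence in situ hybridization. It reports RpS2 as lower in MSL2-trisomy 2L than in trisomy 2L at every embryonic stage scored. Embryos and larvae differ in age and in the method used, and the reason for the opposite directions was not tested.

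One transcript row carried the difference. RpS2 is listed on 3 rows, and the main row, which begins at position 9897521, had 26898 CPM in MSL2-trisomy 2L females against 155 CPM in trisomy 2L females, a ratio of 174, and 6958 CPM in MSL2-trisomy 2L males against 163 CPM in trisomy 2L males, a ratio of 42.8. The second row, which begins upstream, at position 9897552, had 12.6 CPM in MSL2-trisomy 2L females against 8.46 CPM in trisomy 2L females, and 12.2 CPM against 9.21 CPM in the males. The last RpS2 row shares both ends with the main row and had 2.25 CPM in MSL2-trisomy 2L females against 5.85 CPM in trisomy 2L females, and 9.41 CPM against 3.38 CPM in the males. Among the 1207 rows with an average of at least 100 CPM in the 2 female means, the ratio of the main RpS2 row ranked 2, and it also ranked 2 of 1275 in males. By level it was the second most abundant of all rows in MSL2-trisomy 2L females, where RpS2 took 2.82% of the summed CPM, against 0.0184% in trisomy 2L females. The main and last rows cannot be told apart by their coordinates, and whether a single library carries either MSL2 mean was not tested.

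**Figure D1:**
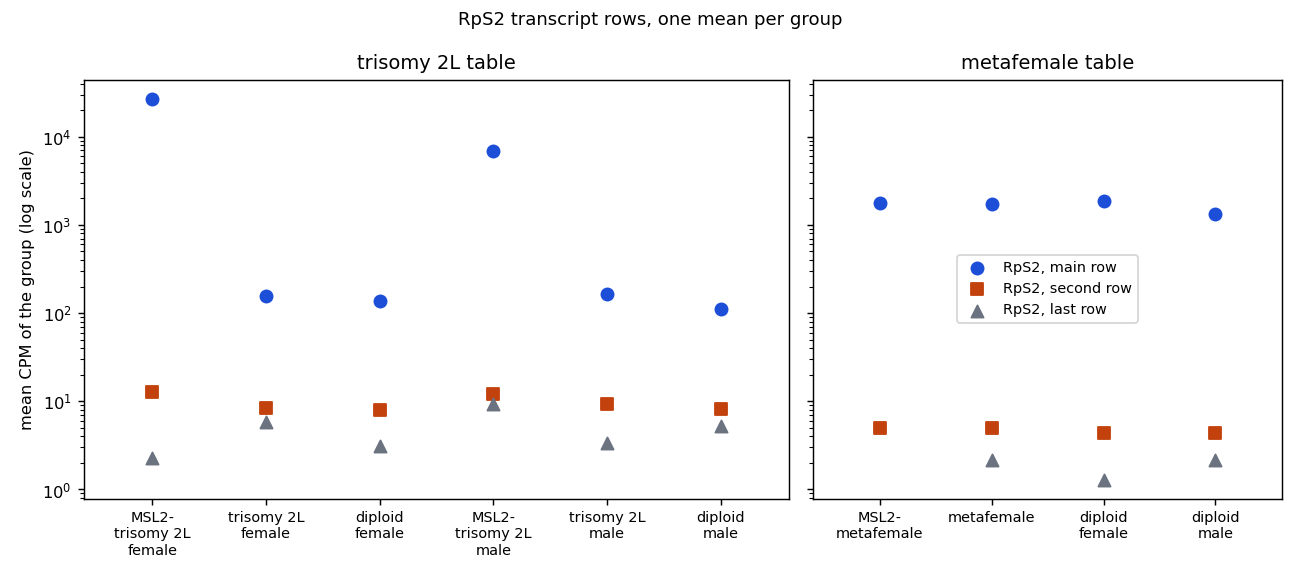
Mean CPM of the 3 RpS2 transcript rows on a log scale, with 1 point per group and row, in the trisomy 2L table (left) and the metafemale table (right). The main row stands at 26898 CPM in MSL2-trisomy 2L females and 6958 CPM in MSL2-trisomy 2L males, against 111 to 163 CPM in the other 4 groups of that table, while in the metafemale table it lies between 1314 and 1884 CPM.

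The diploid level of RpS2 differed between the tables as well, at 149 CPM in diploid females of the trisomy 2L table and 1889 CPM in diploid females of the metafemale table. Over the 80 members, the log2 ratio of the diploid female mean in the trisomy 2L table to that in the metafemale table had a median of -0.17, with RpS2 lowest at -3.66 and RpS4, a small-subunit protein of the body, highest at 1.21. For the diploid male means the median was -0.53, with the same 2 genes at -3.41 and 1.16. The tables were normalized separately, so the ratios below are taken within a table unless another diploid mean is named. The part of the batch adjustment in the RpS2 means was not tested.

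In trisomy 2L females, the median of the ribosomal protein genes lay below the level of diploid females. Members were not lower by 1.5-fold more often than all genes. The median log2 ratio of the 87 members was -0.34, and 60 of 87 were below 0, beside a median of -0.06 over 11004 genes. With the diploid female means of the metafemale table the median of the members was -0.56. Counted at 1.5-fold, 8 members were higher and 18 were lower, where 25% of all genes were higher and 24.1% lower. In trisomy 2L males the median of the members was -0.24, beside -0.14 over all genes, and 12 members were higher and 10 lower, against 23.9% and 31.3% of all genes. The diploid male means of the metafemale table were not tried for the male comparisons. Over 80 members, the diploid means differed between the tables by a median log2 ratio of -0.53 in males and -0.17 in females. Among all genes with an average of at least 100 CPM the median was 0.05 in females and 0.14 in males. That set includes 80 of the members and was not matched to them in level.

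With MSL2, the median of the members lay nearer to 0, while more members, and a larger share of all genes, were past 1.5-fold. The median log2 ratio to diploid females was -0.22 in MSL2-trisomy 2L females over 83 members with both means, beside -0.17 over all genes, with 15 members higher and 14 lower against 26.7% and 34.9% of all genes. In MSL2-trisomy 2L males it was -0.11, the same as over all genes, with 16 members higher and 11 lower against 26.2% and 31.3% of all genes. These ratios share their diploid means with those of the trisomy 2L groups and are not independent of them.

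Among members of at least 100 CPM, those farthest from diploid levels in trisomy 2L were large-subunit genes. RpL8, a protein of the peptidyl transferase centre, had 1915 CPM in trisomy 2L females against 724 CPM in diploid females, and 1766 CPM in trisomy 2L males against 295 CPM in diploid males. RpL4, which lines the exit tunnel, had 2019 CPM in trisomy 2L females against 851 CPM in diploid females, and 1982 CPM against 649 CPM in the males. RpL3, also of the peptidyl transferase centre, had 2725 CPM in trisomy 2L females against 1496 CPM in diploid females. All 3 genes lie on chromosome 3, outside the triplicated arm, and all were also at least 1.5-fold above the diploid mean in both MSL2-trisomy 2L groups. Diploid female means in the metafemale table were 3029 CPM for RpL8, 1928 CPM for RpL4 and 2121 CPM for RpL3. Diploid male means there were 2578 CPM for RpL8 and 1504.5 CPM for RpL4. The ratios of all 3 genes thus depend on which diploid mean is used. At the other end, RpL27 had 683 CPM in trisomy 2L females against 1682 CPM in diploid females and 904 CPM against 1818 CPM in the males. RpL34a had 105 CPM in trisomy 2L females against 278 CPM in diploid females. These last 2 genes, both on 3R, were also among the 3 lowest in metafemales.

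Members on 2L, which has 3 copies in trisomy 2L, stood above the other members. Their median log2 ratio to diploids was 0.06 in trisomy 2L females, against -0.46 for the 56 members on other arms, a difference of 0.52. For all genes of the same classes the difference was 0.48. In trisomy 2L males the 2L members had a median of 0.23 against -0.38 for members on other arms, a difference of 0.61 beside 0.45 for all genes. With MSL2 the differences were 0.65 in females and 0.57 in males, beside 0.51 and 0.44 for all genes. For other genes of at least 100 CPM the 2L difference was 0.44 to 0.59 in these 4 comparisons. Such a difference within a column is unchanged by any scaling of that column. No 2L member was lower by 1.5-fold in trisomy 2L of either sex, while 14 of 56 members on other arms were lower in females and 8 in males. Over all genes, 10.5% of those on 2L and 28.9% of those on other arms were lower in females, and 19.9% and 35.5% in males.

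Single 2L members spread widely around these medians. RpL13 of the large subunit had 2561, 2038 and 1193 CPM in MSL2-trisomy 2L, trisomy 2L and diploid females, and 2082, 1978 and 740 CPM in the corresponding males. RpL24, which bridges the subunits, had 1650, 1530 and 915 CPM in the same order of females. RpLP1, an acidic protein of the stalk that recruits elongation factors, had 2811, 2818 and 1763 CPM. These 3 genes were at least 1.5-fold above the diploid mean in each of the 4 trisomy 2L groups. Their diploid female means in the metafemale table were 1635, 1433 and 2230 CPM, so these ratios too depend on the diploid mean used. RpS26, a protein at the mRNA exit channel, had 3220, 2772 and 2186 CPM in the females. RpL7 had 3973, 3136 and 2520 CPM, and RpL27A had 3128, 2721 and 2451 CPM. RpL40, made as a fusion with ubiquitin, had 2592, 2083 and 2042 CPM. RpL9 had 3187, 2451 and 2391 CPM, RpS13 had 2354, 1926 and 1848 CPM, and RpL37A had 1497, 1494 and 1411 CPM. RpL36A was level at 1696, 1750 and 1699 CPM. In trisomy 2L females 5 of the 17 were below the diploid mean. RpS27A, the other ubiquitin fusion, had 2087, 1942 and 2486 CPM, RpS21 had 1232, 1216 and 1651 CPM, and RpL30 had 1233, 1100 and 1393 CPM. RpL21 had 1349, 2538 and 2812 CPM, and RpL5 had 5070, 5809 and 5867 CPM.

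In metafemales the median of the family was again below the diploid level. Members were lower by 1.5-fold about as often as all genes. The median log2 ratio to diploid females was -0.38 over 87 members, beside -0.19 over all genes and -0.02 over genes of at least 100 CPM. Only RpL22 was higher by 1.5-fold and 27 members were lower, against 18.6% and 31% of all genes. In MSL2-metafemales the median was -0.39, beside -0.34 over all genes, with 5 members higher and 28 lower against 19.9% and 39.3% of all genes. This median depended on the scaling, at -0.059 after centring by a trimmed mean of all log2 ratios and -0.66 with column totals that leave out ribosomal protein genes. With the diploid female means of the trisomy 2L table it was -0.14, and that of metafemales was -0.16. The largest deficits in metafemales were those of RpL34a with 66.5 CPM against 346 CPM, RpL27 with 624 CPM against 1738 CPM, and RpL21 with 1420 CPM against 3048 CPM.

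X-linked members, present in 3 copies in metafemales, stood above the rest. Their median log2 ratio was -0.05 in metafemales, against -0.53 for members outside X and 2L, a difference of 0.48 that equals the one for all genes. In MSL2-metafemales it was 0.05 against -0.54, a difference of 0.59 beside 0.52 for all genes. None of the 14 X-linked members was lower by 1.5-fold in either metafemale group, while 6 of the 17 members on 2L were lower in each. Over all genes, 20.6% of those on X and 43.9% of those on 2L were lower in MSL2-metafemales, and 14.8% and 34.4% in metafemales. In trisomy 2L females, which have 2 X chromosomes like diploid females, X-linked members stood 0.23 above members outside X and 2L, and all X-linked genes likewise 0.23. For other genes of at least 100 CPM the X-linked difference was smaller, at 0.29 in MSL2-metafemales, 0.39 in metafemales and 0.06 in trisomy 2L females.

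**Figure D2:**
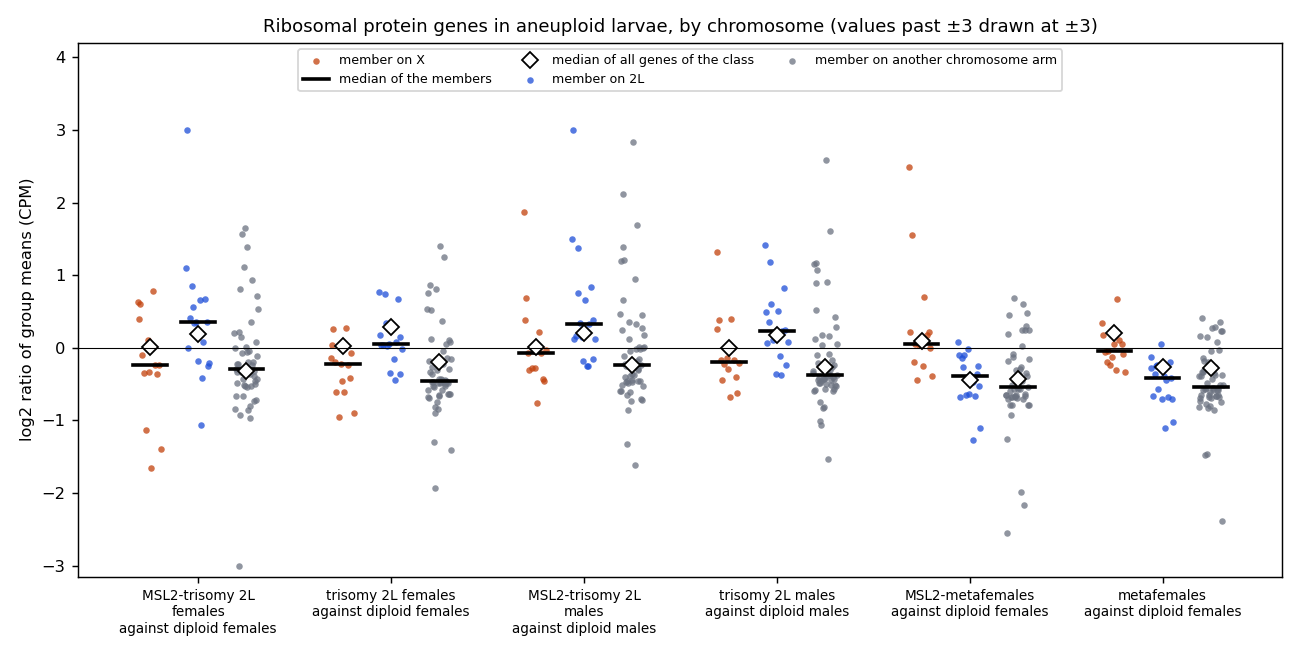
Log2 ratios of group means to diploids of the same sex for each ribosomal protein gene (points), by chromosome class, with the median of the members (bars) and of all genes of the class (diamonds). Members on 2L lie above those on other arms in the 4 trisomy 2L comparisons, and members on X lie above them in both metafemale comparisons, by 0.48 to 0.65.

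Single X-linked members varied. RpL17 had 1607 CPM in MSL2-metafemales, 362 CPM in metafemales and 287 CPM in diploid females, and RpL7A had 3917, 1292 and 1341 CPM. RpL22, a large-subunit protein with a germline paralog, had 687 CPM in MSL2-metafemales, 676 CPM in metafemales and 424 CPM in diploid females. RpS6, the target of S6 kinase, had 3427, 3348 and 2958 CPM in the same groups. RpS10b had 2396, 2269 and 2115 CPM, RpL37a had 2208, 2234 and 2151 CPM, and RpS28b had 2274, 2039 and 1958 CPM. RpL35 had 1816, 1699 and 1753 CPM, RpL36 had 1615, 1530 and 1621 CPM, and RpS5a had 2789, 2470 and 2705 CPM. RpS19a had 1972, 1975 and 2267 CPM, and RpS15Aa had 1985, 1914 and 2372 CPM. Thus 6 of the 14 were above the diploid mean in metafemales and 9 in MSL2-metafemales.

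The medians of small- and large-subunit genes differed in trisomy 2L. A larger share of RpL than of RpS genes lies on 2L, and the part of the triplicated arm in this difference was not tested. The median log2 ratio of RpS genes was -0.44 in trisomy 2L females, against -0.14 for RpL genes, a difference of -0.30. In trisomy 2L males it was -0.37 against -0.11, a difference of -0.26, and in the MSL2-trisomy 2L groups the difference was -0.28 in females and -0.27 in males. No RpS gene was higher by 1.5-fold in trisomy 2L females, while 8 RpL genes were, where 25% of all genes were. In metafemales the medians of both subunits were -0.38.

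Ratios to diploids differed with transcript length. Across the 80 members of at least 100 CPM, Spearman's rho between spliced length and log2 ratio was 0.42 for trisomy 2L females, 0.50 for trisomy 2L males and 0.48 for metafemales. The 26 members under 600 nt had a median of -0.43 in trisomy 2L females, against 0.15 for the 16 members of at least 900 nt. In trisomy 2L males these medians were -0.39 and 0.41, and in metafemales -0.58 and 0.02. Among other genes of at least 100 CPM, rho was 0.22, 0.17 and 0.14 in the same comparisons. In the comparisons with and without MSL2, rho over the members was 0.41 for the female and 0.15 for the male trisomy 2L pair and 0.09 for the metafemale pair. Between diploid males and diploid females it was -0.52 in the trisomy 2L table and -0.68 in the metafemale table. The members share libraries, so these are descriptions without a p-value. The MSL2 libraries and their controls were sequenced with other read lengths than the diploids, and the part of length and of read type in the ratios to diploids was not tested.

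**Figure D3:**
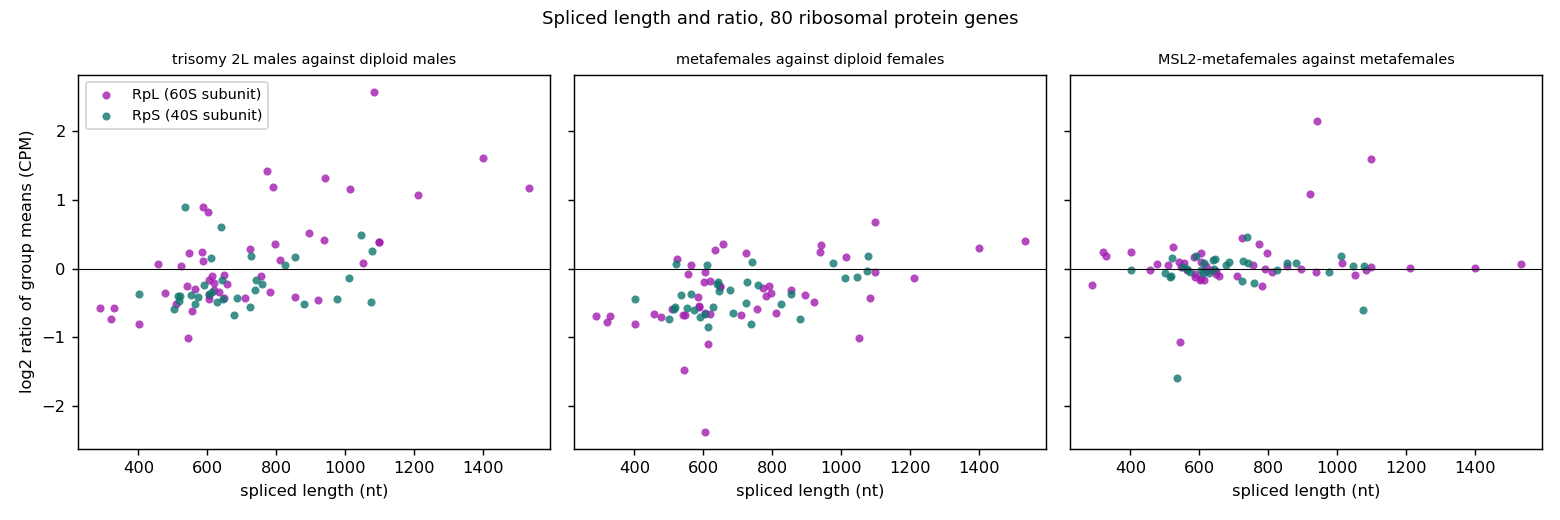
Log2 ratio of group means against spliced length in nt for 80 ribosomal protein genes, with RpL and RpS genes in separate colours. Shorter genes lie lower in trisomy 2L males (rho 0.50) and in metafemales (rho 0.48) relative to diploids, and no such slope is seen between MSL2-metafemales and metafemales (rho 0.09).

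Groups with and without ectopic MSL2 were compared within each aneuploid background, where the 3 comparisons share no group mean. Their fathers came from different stocks, so MSL2 and paternal stock cannot be told apart. The medians of the members were close to 0. The median log2 ratio was 0.16 in MSL2-trisomy 2L females against trisomy 2L females, beside -0.14 over all genes and 0.00 over genes of at least 100 CPM. It was 0.09 in the males, beside 0.02 over all genes, and 0.01 in MSL2-metafemales against metafemales, beside -0.11 over all genes. With every column scaled to the same total, the metafemale medians were -0.25 for the members and -0.38 over all genes. Counted at 1.5-fold, 4 of 83 members were higher and 4 lower in females, against 10.8% and 21.5% of all genes. In males 3 of 87 were higher and 0 lower, against 8.13% and 8.46% of all genes, and in metafemales 3 of 82 were higher and 4 lower, against 10.3% and 15.3% of all genes. The spread of the members was narrower than that of other genes, which were not matched to the members in level. The interquartile range of their log2 ratios was 0.30 in females, 0.14 in males and 0.15 in metafemales, beside 0.76, 0.34 and 0.36 for 1014 other genes of at least 100 CPM in both tables. Of the 80 members, 34 (42.5%) lay within 0.2 of a log2 ratio of 0 in all 3 comparisons, beside 114 of the 1014 other genes (11.2%).

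The medians of the chromosome classes lay closer together here than against diploids. In MSL2-trisomy 2L females against trisomy 2L females, members on 2L had the same median as members on other arms (0.16 and 0.17), and X-linked members had 0.11, which is 0.06 below the other arms. All X-linked genes stood 0.13 above genes of other arms in that comparison. In males the X-linked, 2L and other members had medians of 0.10, 0.10 and 0.08. In metafemales they had 0.07, -0.01 and -0.02.

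Members past 1.5-fold were few in each background. RpL17, an X-linked gene of the exit tunnel, had 679 CPM in MSL2-trisomy 2L females against 397 CPM in trisomy 2L females, 1099 CPM in MSL2-trisomy 2L males against 752 CPM in trisomy 2L males, and 1607 CPM in MSL2-metafemales against 362 CPM in metafemales. RpL17 was thus past 1.5-fold in females and metafemales but not in males, where its ratio was 1.46. RpL7A, also X-linked, had 3917 CPM in MSL2-metafemales against 1292 CPM in metafemales, but 1949 CPM against 1532 CPM in trisomy 2L females. RpL15 on 3L had 2067 CPM in MSL2-metafemales against 972 CPM in metafemales.

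Lower with MSL2 were RpS15Aa on X, with 658 CPM in MSL2-trisomy 2L females against 1358 CPM in trisomy 2L females, and RpL21 on 2L, with 1349 CPM against 2538 CPM. Neither had such a difference in males, where RpS15Aa had 1141 CPM against 1213 CPM and RpL21 had 2066 CPM against 2269 CPM. In metafemales RpL27 had 298 CPM with MSL2 against 624 CPM without it, and RpS4 had 838 CPM against 1275 CPM. The minor paralog RpS5b had 2.12 CPM in MSL2-trisomy 2L females against 4.05 CPM in trisomy 2L females, and 2.54 CPM in MSL2-metafemales against 4.82 CPM in metafemales. RpL22-like had 0.0181 CPM in MSL2-trisomy 2L females against 0.311 CPM in trisomy 2L females, levels at which a ratio is uncertain. RpL34a was 1.5-fold higher with MSL2 in females alone, at 175 CPM against 105 CPM, and had 169 CPM against 128 CPM in males and 77.5 CPM against 66.5 CPM in metafemales. RpL18 and RpL10 were among the 3 lowest of the males, at ratios of 0.82 and 0.84.

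**Figure D4:**
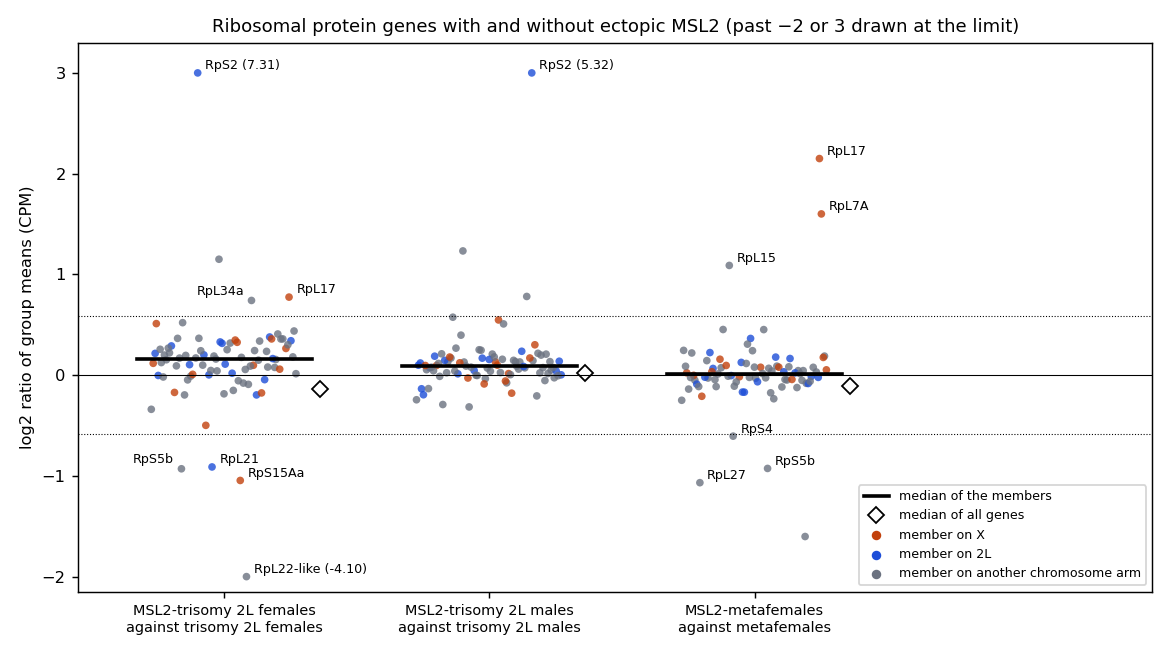
Log2 ratios of group means with MSL2 to those without it, for each ribosomal protein gene in 3 backgrounds, with names for the members described in the text that lie at least 1.5-fold from equal (dotted lines). Most members lie close to 0 and RpS2 stands at 7.31 and 5.32 in trisomy 2L females and males.

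Several of these differences sat in single transcript rows. The main row of RpL7A had 3792 CPM in MSL2-metafemales against 977 CPM in metafemales, while its second row had 34.1 CPM against 90.7 CPM. The main row of RpS15Aa had 472 CPM in MSL2-trisomy 2L females against 1263 CPM in trisomy 2L females. RpL21 had 2 rows of note. Its main row had 872 CPM in MSL2-trisomy 2L females, 1765 CPM in trisomy 2L females and 2794 CPM in diploid females, and a row that begins further upstream and ends at the same base had 466, 769 and 11.9 CPM. This longer RpL21 row had 27.0, 18.9 and 12.1 CPM in the corresponding males. Of the members with several rows, the most abundant row differed between groups in 7 of 66 in the trisomy 2L table (RpL10, RpL15, RpL27, RpL28, RpL34a, RpS10b and RpS14a) and in 5 of 65 in the metafemale table. RpL27 has 2 rows with the same ends, of which the first had 125, 84.5 and 1559 CPM in MSL2-trisomy 2L, trisomy 2L and diploid females, while the other had 686, 594 and 116 CPM. Rows with the same ends can share reads, so their split is uncertain, and the gene sum was used for all counts.

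A set of paralogs had higher means in males. In the trisomy 2L table, 7 members were higher by 1.5-fold in diploid males than in diploid females and 5 were lower, against 27.8% and 8.66% of all genes. Apart from RpL10, the 6 higher members were RpL10Aa, RpL22-like, RpL37b, RpS10a, RpS19b and RpS5b, each the minor gene of a pair. RpL10Aa had 53.1 CPM in diploid males against 0.119 CPM in diploid females, RpS19b had 39.8 CPM against 0.236 CPM, and RpL22-like had 38.0 CPM against 0.300 CPM. The same 6 paralogs were higher in trisomy 2L males than in trisomy 2L females, where 8 members were higher and 0 lower, against 28% and 5.33% of all genes. Between MSL2-trisomy 2L males and MSL2-trisomy 2L females, 7 of 83 members were higher and 2 lower, against 37% and 9.85% of all genes. In diploid males of the metafemale table, 15 members were higher and 1 lower, against 21.3% and 18.5% of all genes, and the 6 paralogs were among them. There RpL32, a gene often used as a reference in qPCR, had 674 CPM in diploid males against 296 CPM in diploid females, while in the trisomy 2L table it had 334 CPM against 262 CPM. RpLP0, the core of the stalk, was among the 3 lowest there, with 1652 CPM in diploid males against 2452 CPM in diploid females. Over the whole family the median log2 ratio of males to females was -0.16 in diploids of the trisomy 2L table, 0.13 in diploids of the metafemale table, -0.05 in trisomy 2L and -0.11 in MSL2-trisomy 2L. After centring by a trimmed mean of all log2 ratios, these last medians were -0.26 and -0.47.

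The paralogs had lower means in trisomy 2L males than in diploid males, with RpS5b as the exception. RpL10Aa had 17.4 CPM in MSL2-trisomy 2L males, 18.4 CPM in trisomy 2L males and 53.1 CPM in diploid males. RpS19b had 21.9, 19.0 and 39.8 CPM, RpS10a had 9.82, 8.50 and 15.0 CPM, and RpL22-like had 38.2, 31.7 and 38.0 CPM in the same groups. RpS5b, whose counterpart RpS5a is X-linked, had 38.0, 34.6 and 24.1 CPM. In MSL2-trisomy 2L females RpL10Aa, RpL37b, RpS10a and RpS19b are listed without a mean, and in MSL2-metafemales these 4 and RpL22-like are, so no ratio is given for them there. RpS28a, under 1 CPM on average, had 1.78 CPM in diploid males against 0.0260 CPM in diploid females. RpS28-like, outside the canonical set, had 5.92 CPM in diploid males and no mean in diploid females.

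Markers of spermatocytes were also high in males. Of 10 markers 9 were found, and their sum was 577 CPM in MSL2-trisomy 2L males, 530 CPM in trisomy 2L males and 969 CPM in diploid males, against 2.54, 11.1 and 12.1 CPM in the corresponding females. In the metafemale table it was 867 CPM in diploid males against 14.6 CPM in diploid females. The part of the germ line in the paralog levels was not tested.

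**Figure D5:**
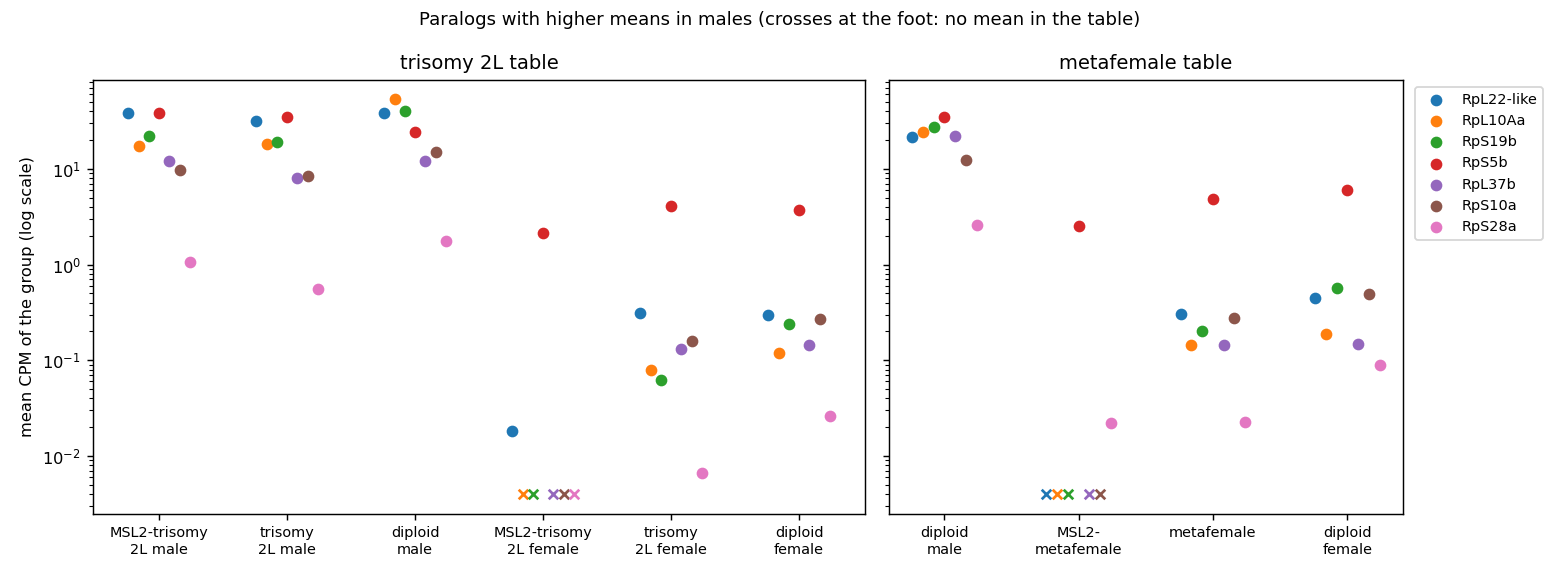
Mean CPM of 7 ribosomal protein paralogs on a log scale, with 1 point per gene and group, in the trisomy 2L table (left) and the metafemale table (right). In males RpL22-like, RpL10Aa, RpS19b, RpS5b, RpL37b and RpS10a lie between 8.09 and 53.1 CPM, in females all but RpS5b lie under 0.6 CPM, and crosses mark groups with no mean in the table.

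Among paralog pairs, the major gene was X-linked and the minor one autosomal for RpL22, RpL37a, RpS5a, RpS10b, RpS15Aa, RpS19a and RpS28b. RpL22-like made up 8.70% of its pair in MSL2-trisomy 2L males, 6.54% in trisomy 2L males and 9.89% in diploid males, and at most 0.107% in any female group. RpS15Ab made up 13.2% of its pair in MSL2-trisomy 2L females, against 7.79% in trisomy 2L females, where RpS15Aa was low. RpS14a and RpS14b lie side by side on X and encode the same protein, so their split is uncertain. RpS14b had 11.0, 15.6 and 29.0 CPM and RpS14a 740, 836 and 1620 CPM in MSL2-trisomy 2L, trisomy 2L and diploid females. RpL34b, the major gene of its pair on 3R, had 992, 882 and 682 CPM there, while RpL34a had 175, 105 and 278 CPM. RpL10Ab had 1951, 1726 and 2387 CPM. The symbols outside the canonical set were low, with averages of 85.4 CPM for RpL7-like, 117 CPM for RpL24-like and 26.8 CPM for RpLP0-like in the trisomy 2L table.

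Other genes of the translation pathway had medians of their own. Of 7 elongation factors, all found, 1 was higher and 1 lower by 1.5-fold in trisomy 2L females against diploid females, with a median log2 ratio of 0.26, where ribosomal protein genes had -0.34. As above, 25% of all genes were higher and 24.1% lower there, and 18.6% and 31% in metafemales. In metafemales their median was 0.27, with 1 higher and 3 lower. Of 17 initiation factors 15 were found, with 2 higher and 3 lower and a median of -0.25 in trisomy 2L females, and 1 higher and 3 lower in metafemales. Of 20 ribosome biogenesis genes, 7 were higher and 4 lower in trisomy 2L females, and 3 higher and 6 lower in metafemales with a median of -0.38. Of the 4 genes of RNA polymerase I, which makes rRNA, 1 was higher and 1 lower in both. The 2 ribosomal genes sta and Rack1, whose symbols fall outside the rule, had a median of 0.31 in trisomy 2L females and -0.005 in metafemales. Rack1 lies on 2L and had 2240 CPM in trisomy 2L females against 2130 CPM in diploid females. The X-linked sta had 2184 CPM against 1492 CPM, but 2883 CPM in diploid females of the metafemale table, so its ratio depends on the diploid mean used. With MSL2, 0 of 7 elongation factors passed 1.5-fold in either direction in any background. Of the 20 biogenesis genes 1 was higher in females, 1 in males and none in metafemales, and none was lower. Of all genes 10.8%, 8.13% and 10.3% were higher in females, males and metafemales, and 21.5%, 8.46% and 15.3% were lower.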

How the data were processed

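Whole-larva RNA was sequenced by the study with paired-end reads for the MSL2 groups and their controls, and with shorter single-end reads for diploids and further aneuploid libraries. The authors aligned reads with HISAT2, counted transcripts with StringTie, divided by mapped reads to give CPM, adjusted these for batch with ComBat on a log scale, removed values not above 0 and averaged replicates. The deposited CPM values are 1 mean per group, and which libraries entered the means without MSL2 is not stated. The deposited MSL2-metafemale column sums to 1062350, more than CPM can, and the deposited diploid columns match no labelled library, so these were treated as scores on the CPM scale. The 11 deposited columns of the authors' ratios between groups were not used. Depth is unknown, and no error or test could be computed, so the tests planned for single libraries were not made.

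Transcript rows were summed by gene symbol, a missing row counting as 0, and genes with an average of at least 1 CPM over the columns of a table were compared by the log2 ratio of their means, with 1.5-fold as the limit for counts. Lengths are the median over Ensembl transcripts (BDGP6.54, release 115) with the coordinates of each gene's most abundant row, found for 80 of 80 members of at least 100 CPM. The genes named are RpS2, paralog pairs, members on X and 2L, the 3 of highest average, and the 3 highest and 3 lowest members per comparison with an average of at least 10 CPM. Some members that the rule names are not reported here. Others were chosen after their values were seen. The members and lists were chosen with earlier results of these data known. Alternatives changed the pseudocount, filter, unit, scaling, member set, fold and, for comparisons with diploid females only, the diploid table. The functions were tested on simulated data. Python 3.11.15, numpy 2.4.6, pandas 2.3.3 and matplotlib 3.10.9 were used.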

Additional observations from a re-analysis of the deposited data

How the results depend on the processing

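A median, class difference or RpS2 value was taken as moved when an alternative shifted it by more than 0.2 on the log2 scale. Of 398 such values, 387 moved by less. The RpS2 values among them are those of the MSL2-trisomy 2L comparisons. Of the other values of single genes that were tried, 922 stayed within the same limit, 123 moved and 2 changed direction. With the diploid female means of the other table, the median of the members was -0.56 in trisomy 2L females, -0.16 in metafemales and -0.14 in MSL2-metafemales, and the log2 ratio of RpS2 was 3.83 in MSL2-trisomy 2L females. With column totals without ribosomal protein genes, the median was -0.66 in MSL2-metafemales against diploid females and -0.28 against metafemales, where equal column totals gave -0.25. With a trimmed mean of log2 ratios (30% at each end), it was -0.059 in MSL2-metafemales against diploid females, -0.26 in trisomy 2L males against trisomy 2L females and -0.47 in MSL2-trisomy 2L males against MSL2-trisomy 2L females, where RpS2 was at -2.3. The cause was not tested.

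No paired analysis was possible because the tables hold 1 mean per group, and for the same reason no replicate could be left out. RpL8 against diploid females changed direction with the diploid means of the other table, to -0.66 in trisomy 2L females and -0.49 in MSL2-trisomy 2L females. Of 424 counts of members, 98 differed by over 1.5 times under an alternative, mostly with another fold or scaling. The planned search of promoters for motifs was not run. Neither replicate error nor depth limits any value in a known way, so a ratio of 1 gene may rest on 1 library.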
